A study of Mus musculus with 6 samples.

Results

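Bidirectional protein-coding promoters are places where 2 genes start back to back on opposite strands, so that a single short stretch of DNA lies upstream of both. They were taken from the GENCODE M21 annotation of the mouse genome (mm10) on chromosomes 1 to 19 and X, without use of any binding value. A pair had a minus-strand gene on the left and a plus-strand gene on the right, with starts at most 1000 bp apart, and its window was the span between the starts with 500 bp added on each side. There were 754 such pairs with 1487 genes, among 21755 protein-coding starts in all. Of these pairs 42 shared a gene with another pair, and the windows merged to 733 distinct ones. The starts of a pair were a median of 129.5 bp apart (quartiles 67 bp and 240 bp), and 618 pairs (82.0%) were at most 300 bp apart. The comparison group was the 13817 protein-coding genes with no start of any other gene within 5000 bp, called single starts below, each with 500 bp on either side.

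CDK6 binding was measured by ChIP-seq with an antibody against the HA tag in murine BCR::ABL1+ pre/pro-B cell lines. All lines derived from bone marrow of Cdk6-/- C57BL/6 mice, were transformed with retroviral BCR-ABL, and overexpressed either HA-tagged wildtype CDK6 (CDK6-WT, n = 2 libraries) or the HA-tagged kinase inactive mutant CDK6-K43M (n = 2 libraries) from a retroviral vector. CDK6 was thus supplied by a viral promoter and not from its own locus in every library. The comparison of the variants asks whether the kinase activity changes where CDK6 sits on chromatin. The 2 input libraries and cells without a tagged protein were not analysed here, so the background for each value is given by other gene starts in the same list. The labels do not say whether libraries with the same variant came from separate cultures, and p-values measure only the spread between these libraries.

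The lists held 35189 and 34729 peaks for CDK6-WT replicates 1 and 2, and 39797 and 37304 peaks for CDK6-K43M. Between 1.75% and 2.37% of the peaks in a list overlapped a bidirectional window. The lists contain no expression values, so that the cell type could be examined only through peaks at marker genes. Of 13 B-lineage genes such as Pax5 and Ebf1, 11 starts had a peak in at least 3 of the 4 lists and 1 had none in any. Of 14 genes of other lineages, 1 start was bound in at least 3 lists and the other 13 in none.

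Transcription from a bidirectional promoter starts in both directions from a nucleosome-poor centre that usually lies in a CpG island and often lacks a TATA box. Genes for DNA repair, mitochondrial proteins, chaperones and histones are known to be common among such pairs, and sites for ETS factors such as GABPA, for NRF-1, NFY and YY1 are often found between the starts. CDK6, a cyclin-dependent kinase of the G1 phase, has no DNA-binding domain of its own and is known to reach chromatin through other proteins.

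The sequences between the starts are shown first for the 3 pairs with the highest mean peak rank in all 4 lists, on the plus strand of GRCm38 (mm10). The left end borders the minus-strand gene and the right end the plus-strand gene. Capitals mark matches on either strand to letters searched for known factors (the ETS letters CCGGAAG, the NFY letters AGCCAAT, NRF-1 written as GCGCNTGCG and GFY/Ronin written as ACTACANNT, where N is any base).
Nop14/Grk4 (chr5:34660149-34660378): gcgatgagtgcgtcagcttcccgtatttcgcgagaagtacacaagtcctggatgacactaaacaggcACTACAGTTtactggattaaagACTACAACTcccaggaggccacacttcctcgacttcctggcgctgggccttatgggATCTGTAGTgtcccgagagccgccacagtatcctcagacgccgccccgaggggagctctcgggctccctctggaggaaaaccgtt
St13/Xpnpep3 (chr15:81400078-81400137): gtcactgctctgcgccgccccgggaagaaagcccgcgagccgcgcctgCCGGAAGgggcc
Hjurp/Trpm8 (chr1:88277634-88277660): ggggagggacgagagggagggtccgcc
The spellings GCGCNTGCG and ACTACANNT were chosen after the spans shown here were read, so that matches to them describe these spans only. The Nop14/Grk4 span held 3 matches to ACTACANNT and none to the planned GFY/Ronin letters ACTACAATT. The St13/Xpnpep3 span held the ETS letters, and the short Hjurp/Trpm8 span held no letters that were searched. The next spans belong to the pair with the lowest mean rank among those in all 4 lists, to the only pair with peaks in the CDK6-WT lists alone, and to 2 pairs long known as bidirectional (for Atm/Npat 300 bases around the midpoint).
Cdr2/Mfsd13b (chr7:120982313-120982508): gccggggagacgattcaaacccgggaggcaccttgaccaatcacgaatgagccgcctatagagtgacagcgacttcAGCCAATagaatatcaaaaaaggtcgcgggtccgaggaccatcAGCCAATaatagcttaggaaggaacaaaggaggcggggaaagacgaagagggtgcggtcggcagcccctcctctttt
Gm49661/Prdx2 (chr8:84969434-84969586): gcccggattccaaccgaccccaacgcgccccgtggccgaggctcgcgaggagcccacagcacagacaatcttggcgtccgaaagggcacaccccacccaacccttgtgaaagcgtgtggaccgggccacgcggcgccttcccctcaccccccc
Atm/Npat (chr9:53536744-53537043): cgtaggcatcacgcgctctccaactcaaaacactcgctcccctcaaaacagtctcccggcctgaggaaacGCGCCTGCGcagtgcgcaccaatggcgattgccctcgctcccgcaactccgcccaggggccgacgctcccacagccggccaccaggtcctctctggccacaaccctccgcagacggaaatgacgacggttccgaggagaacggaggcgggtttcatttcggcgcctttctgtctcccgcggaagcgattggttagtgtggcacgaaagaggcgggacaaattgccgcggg
Brca1/Nbr1 (chr11:101551956-101552148): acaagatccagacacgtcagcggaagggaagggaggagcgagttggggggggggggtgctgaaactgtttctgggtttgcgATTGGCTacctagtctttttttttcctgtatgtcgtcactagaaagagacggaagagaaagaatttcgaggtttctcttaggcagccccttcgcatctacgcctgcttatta
The weakly bound Cdr2/Mfsd13b span held the NFY letters at 2 places, and Brca1/Nbr1 held them on the minus strand. Atm/Npat held a match to GCGCNTGCG. Gm49661/Prdx2 held none of the letters, although it contained 15 CpG dinucleotides and 69.9% G and C.

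Most bidirectional windows carried a CDK6 peak in every library, far more often than single starts. In CDK6-WT replicate 1, 673 of 754 windows (89.3%, 95% Wilson interval 86.8% to 91.3%) overlapped a peak by at least 1 bp, where 42.3% of all protein-coding starts did. In CDK6-WT replicate 2 there were 565 windows (74.9%, 71.7% to 77.9%), against 34.8% of all starts. In CDK6-K43M replicate 1 there were 677 windows (89.8%, 87.4% to 91.8%), against 43.4% of all starts. In CDK6-K43M replicate 2 there were 532 windows (70.6%, 67.2% to 73.7%), against 33.9% of all starts. All intervals here cover counting error only. Both replicate 1 libraries were thus above both replicate 2 libraries, whichever variant they held.

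Single starts had a peak in 33.3% (replicate 1) and 27.6% (replicate 2) of cases with CDK6-WT, and CDK6-K43M gave 34.3% and 27.1%. Bidirectional windows were bound 2.61 to 2.71 times as often, and the difference of 50.6 percentage points ± 6.17 (SD, n = 4) was positive in 4 of 4 libraries (exact two-sided permutation p = 0.13, the smallest that 4 libraries allow). The wider windows of the pairs made little difference, since 68.7% to 88.9% of the member starts taken alone with 500 bp on each side had a peak. Genes head to head with a gene of another biotype, such as a long noncoding RNA, lay between both groups, with 65.1% and 54.3% of 875 starts bound by CDK6-WT and 66.3% and 53.0% by CDK6-K43M. Against these starts, a comparison chosen after the data were seen, the difference was 21.4 percentage points. With single starts weighted to the CpG content of the members it was 24.2 percentage points.

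**Figure D1:**
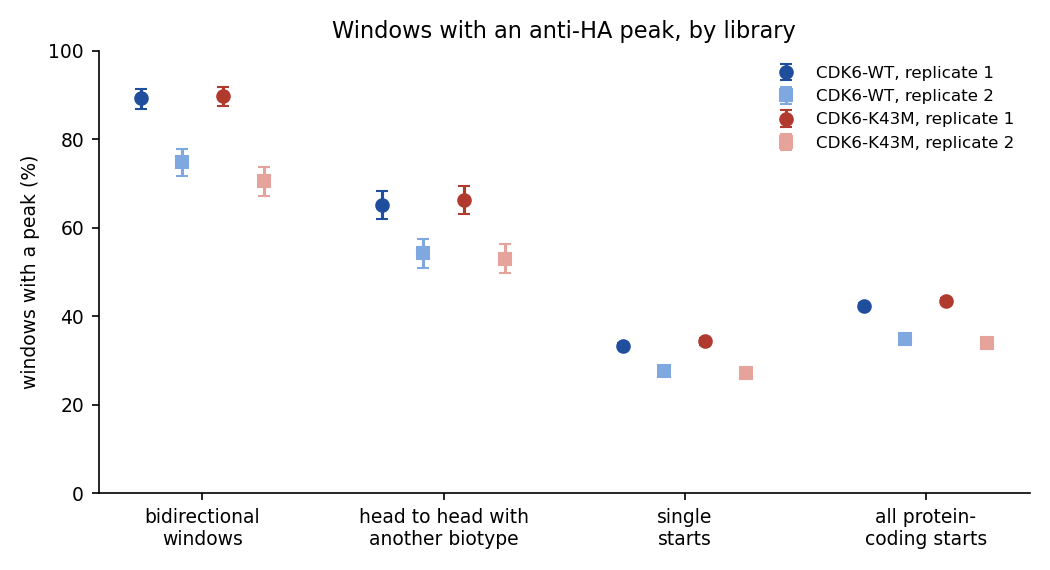
The y axis gives the percentage of windows with an anti-HA peak, for bidirectional windows, starts head to head with a gene of another biotype, single starts and all protein-coding starts. Points are the 4 libraries and bars are 95% Wilson intervals. In each library bidirectional windows are highest (70.6% to 89.8%) and single starts lowest (27.1% to 34.3%), and circles (replicate 1) lie above squares (replicate 2).

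CpG content was therefore examined separately. The ratio of observed to expected CpG dinucleotides in 1 kb around the midpoint had a median of 0.773 in bidirectional windows and of 0.441 at single starts. At a ratio of at least 0.6, typical of CpG islands, 548 of 639 bidirectional windows (85.8%) and 3130 of 5336 single starts (58.7%) had a peak in at least 3 of 4 lists. Below 0.6 these numbers were 57 of 115 (49.6%) and 807 of 8481 (9.52%). From a ratio of 0.5 upwards, bidirectional windows exceeded single starts in every list and every bin of CpG content. In the highest bin, 96.0% of bidirectional windows but 76.8% of single starts had a peak in CDK6-WT replicate 1, and in CDK6-K43M replicate 2 the shares were 85.7% and 64.1%. The bins below a ratio of 0.5 held 17 or fewer pairs each.

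**Figure D2:**
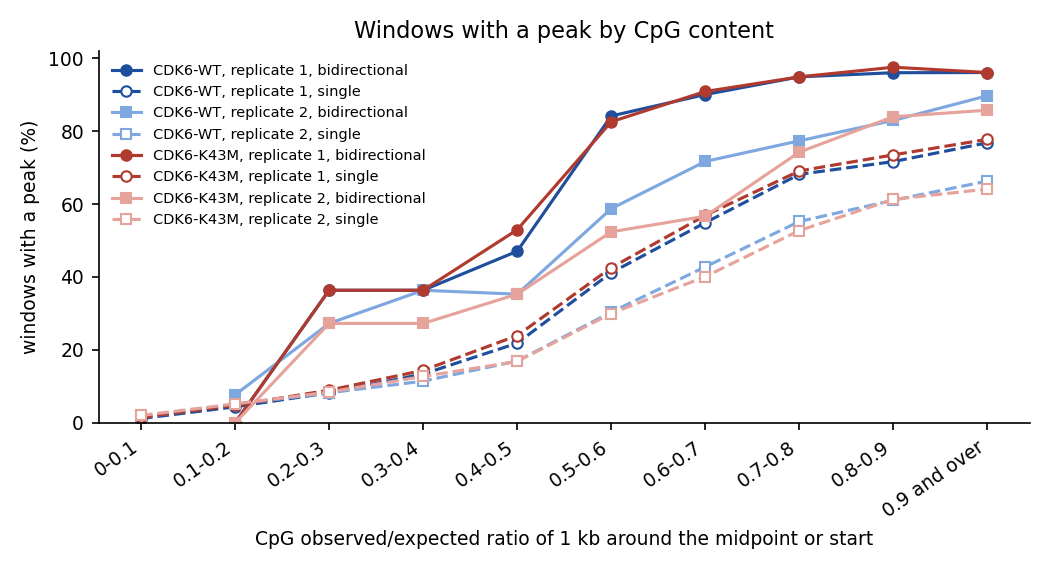
The y axis gives the percentage of windows with a peak by bin of the CpG observed/expected ratio (x axis, no unit), with filled symbols and solid lines for bidirectional windows and open symbols and dashed lines for single starts. Colours and shapes are the 4 libraries. Both groups rise with CpG content, and the bidirectional windows lie above the single starts of the same library from the bin 0.5-0.6 upwards.

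By the definition of the study a site is bound by both variants when at least 3 of the 4 libraries have a peak. This held for 605 bidirectional windows (80.2%, 77.2% to 82.9%), against 36.5% of all protein-coding starts. A peak in all 4 lists was found at 482 windows (63.9%), against 28.4% of all starts. No list had a peak at 68 windows (9.02%), against 54.1% of all starts. Exactly 1 window had peaks in both CDK6-WT libraries and neither CDK6-K43M library (0.133%, against 0.0781% of all starts). It was Gm49661/Prdx2, where Prdx2 encodes a peroxiredoxin that removes hydrogen peroxide. Its peaks ranked at the 38.7th and 11.98th percentile of their lists by −log10 q, with 5.83-fold and 4.04-fold enrichment, so that the only CDK6-WT-specific window rested on peaks below the middle of both lists. None of the 754 windows was unique to CDK6-K43M, which allows a share of up to 0.398%, where 0.216% of all starts were. Leaving out 1 library, which makes the definition looser, gave up to 79 windows for CDK6-WT (without CDK6-K43M replicate 1) and up to 45 for CDK6-K43M (without CDK6-WT replicate 1).

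The share of bound windows was 82.1% ± 10.1 (SD, n = 2) with CDK6-WT and 80.2% ± 13.6 (SD, n = 2) with CDK6-K43M. They differed by -1.92 percentage points (exact two-sided permutation p = 1), where 2 libraries against 2 cannot go below 0.333. It was 0.531 percentage points within replicate 1 and -4.38 within replicate 2. It turned to 5.24 without CDK6-WT replicate 1 and to 7.69 without CDK6-K43M replicate 2. The excess over single starts also differed little by variant, by -2.19 percentage points (exact permutation p = 0.667), with -0.541 within replicate 1 and -3.84 within replicate 2. No difference could therefore pass a threshold of 0.05 in this design, and the spread between replicates was larger than both differences.

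The windows that lacked a peak in some lists followed the replicate number, as did all protein-coding starts. Both replicate 1 lists and neither replicate 2 list had a peak at 65 windows (8.62%, against 5.63% of all starts). Another 78 windows lacked a peak in CDK6-K43M replicate 2 alone (10.3%, against 4.34% of all starts). In CDK6-WT replicate 2 alone 45 lacked one (5.97%, against 3.23% of all starts). A peak was missing from a replicate 1 list alone at 0 windows. Among all starts this was so at 0.418% for CDK6-WT and at 0.129% for CDK6-K43M. Both replicate 2 lists and neither replicate 1 list had a peak at 3 windows (0.398%, against 0.942% of all starts). A peak in 1 list was found at 12 windows (1.59%, against 2.37% of all starts). The replicate 1 lists shared 670 windows, which were 99.6% of those in CDK6-WT and 99.0% of those in CDK6-K43M. The replicate 2 lists shared 485 windows, 85.8% and 91.2% respectively. Within each variant the replicate 1 list was also the longer one. Across variants, CDK6-K43M replicate 2 had 37304 peaks and 532 bound windows, and CDK6-WT replicate 1 had 35189 peaks and 673 bound windows. The part of list length in this pattern was not tested.

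Peaks at bidirectional windows ranked high within the replicate 1 lists and near the middle of the replicate 2 lists. Each peak was given its percentile by −log10 q among all peaks of its list, and the strongest peak of a window was used. The median percentile at bidirectional windows was 84.8 and 56.1 in CDK6-WT replicates 1 and 2, and 85.7 and 58.4 in CDK6-K43M. At single starts with a peak it was 75.2 and 56.1, and 77.7 and 55.4. The mean difference of 5.14 percentile points ± 4.44 (SD, n = 4) had an exact permutation p of 0.25, and it was -0.166 with the top 10000 peaks per list. The median enrichment of these peaks was 11.3-fold and 6.16-fold in CDK6-WT and 11.2-fold and 5.84-fold in CDK6-K43M. Their median width was 576 bp and 348 bp in CDK6-WT and 697 bp and 349 bp in CDK6-K43M.

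Across the 482 windows in all 4 lists, the ranks resembled each other most between the replicate 1 libraries of different variants (Spearman's rho = 0.828). Between the replicate 2 libraries rho was 0.486, and between libraries of the same variant it was 0.408 for CDK6-WT and 0.3596 for CDK6-K43M. These values describe windows of shared libraries and carry no test. The percentile was higher in CDK6-K43M than in CDK6-WT within both replicate numbers at 123 windows and lower within both at 119. At the remaining 240 windows the difference had opposite signs, so no common direction by variant was seen.

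The 8 pairs with the highest mean percentile joined genes of quite different function. Nop14, required for assembly of the small ribosomal subunit, and Grk4, a kinase of G protein-coupled receptors, shared a window at the 99.9th and 97.1st percentile in CDK6-WT and the 99.97th and 96.5th in CDK6-K43M. Its enrichment was 24.4-fold and 15.05-fold in CDK6-WT and 27.5-fold and 13.4-fold in CDK6-K43M. St13, a co-chaperone of Hsp70, and Xpnpep3, a mitochondrial aminopeptidase, had 16.8-fold and 14.3-fold enrichment in CDK6-WT and 15.3-fold and 13.4-fold in CDK6-K43M. Its enrichment thus varied little over the 4 libraries. Hjurp, the chaperone of the centromeric histone CENP-A, faced Trpm8, a cold-activated ion channel of sensory neurons. Their starts were 28 bp apart and their window had 15.9-fold and 6.75-fold enrichment in CDK6-WT and 16.4-fold and 8.39-fold in CDK6-K43M. The other pairs were Ecd/Fam149b, Tatdn3/Nsl1 (Nsl1 is a kinetochore protein), Snx1/Ciao2a (a sorting nexin and an iron-sulfur cluster assembly factor), Palb2/Dctn5 (the partner of BRCA2 and a dynactin subunit) and Cdk5/Slc4a2 (a neuronal cyclin-dependent kinase and an anion exchanger). In these 5 pairs the enrichment was between 18.4-fold and 25.3-fold in the replicate 1 lists and between 9.61-fold and 15.4-fold in the replicate 2 lists.

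At the lower end of the pairs in all 4 lists were Cdr2/Mfsd13b, H2-T22/Gm6034 and Psma7/Ss18l1. H2-T22 is a non-classical MHC class I gene and Psma7 encodes a subunit of the 20S proteasome core. Cdr2/Mfsd13b had 7.12-fold and 3.95-fold enrichment in CDK6-WT and 5.12-fold and 4.02-fold in CDK6-K43M. H2-T22/Gm6034 reached 7.12-fold and 4.01-fold, and 7.10-fold and 4.02-fold. The replicate 2 peaks of these 2 pairs lay between percentiles 7.61 and 12.3 of their lists. Psma7/Ss18l1 had 7.40-fold and 4.64-fold in CDK6-WT, and 5.75-fold and 4.28-fold in CDK6-K43M, with replicate 2 percentiles of 25.5 and 16.2. Its strongest summits in CDK6-WT replicate 2 and CDK6-K43M replicate 1 lay outside the window.

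Of 16 pairs widely used as examples of bidirectional promoters 5 met the distance rule, and all 5 had a peak in all 4 lists. Atm, the kinase that senses DNA double-strand breaks, and Npat, the coactivator of histone genes, start 307 bp apart. Their window had 15.2-fold and 8.30-fold enrichment in CDK6-WT and 13.4-fold and 7.38-fold in CDK6-K43M. Brca1, which acts in homologous recombination, and the autophagy receptor Nbr1 had 11.7-fold and 8.71-fold, and 12.1-fold and 6.90-fold. Mcm4, part of the replicative helicase, and Prkdc, the catalytic subunit of DNA-PK, had 11.3-fold and 5.71-fold, and 7.56-fold and 5.06-fold. Mrps12, a mitochondrial ribosomal protein, and Sars2, the mitochondrial seryl-tRNA synthetase, had 11.04-fold and 4.89-fold, and 13.6-fold and 5.38-fold. Wrap53, a telomerase cofactor, and Trp53, the p53 tumour suppressor, had 12.99-fold and 8.52-fold in CDK6-WT, and 22.3-fold and 5.02-fold in CDK6-K43M. The highest of these values was not centred on the shared promoter, since the CDK6-K43M replicate 1 peak at Wrap53/Trp53 had its summit 936 bp from the midpoint, outside the window, whereas the other 3 summits were 10 bp to 15 bp from it. The CDK6-WT replicate 1 summit at Brca1/Nbr1 also lay outside the window, 643 bp from the midpoint. In each of the 5 pairs the peak of the replicate 1 library was above that of the replicate 2 library of its variant, which for these 2 pairs includes the peaks with outside summits.

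The gene lists below were matched by symbol and are read against the 80.2% of all members bound by both variants. Each is also read against all starts of its own list, paired or not. Of these, 82.6% were bound by both for DNA replication and repair, 91.0% for mitochondrial ribosomal proteins and 75.9% for oxidative phosphorylation. The share was 84.2% for aminoacyl-tRNA synthetases, 79.8% for cell cycle, 66.7% for proteasome and chaperones, 82.1% for cytosolic ribosomal proteins and 67.2% for histones. Genes of DNA replication and repair formed the largest group, with 36 pairs, of which 34 were bound by both, 30 were in all 4 lists and 0 were without a peak. Palb2/Dctn5, Emc3/Fancd2, Rad17/Taf9 and Polh/Xpo5 led it, with 13.97-fold to 21.9-fold enrichment in the replicate 1 lists and 7.87-fold to 10.5-fold in the replicate 2 lists. Fancd2 belongs to the Fanconi anaemia pathway, Rad17 loads a checkpoint clamp and Polh is a translesion polymerase.

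Pairs with a mitochondrial ribosomal protein or a subunit of oxidative phosphorylation were bound at about the share of all starts in their lists. Of 18 pairs with a mitochondrial ribosomal protein 17 were bound by both (94.4%) and 15 were in all 4 lists, such as Helq/Mrps18c and Mitd1/Mrpl30. Helq/Mrps18c had 19.5-fold and 7.80-fold enrichment in CDK6-WT and 20.96-fold and 9.77-fold in CDK6-K43M. Of 18 pairs with a subunit of oxidative phosphorylation (OXPHOS) 14 were bound by both (77.8%), 9 were in all 4 lists and 0 were without a peak. Of all members 63.9% were in all 4 lists. Sdha/Ccdc127, with the catalytic subunit of succinate dehydrogenase, had 13.4-fold and 4.98-fold enrichment in CDK6-WT, 15.2-fold in CDK6-K43M replicate 1 and no peak in CDK6-K43M replicate 2. Sdhd/Timm8b, with the membrane anchor of the same complex and an import chaperone, was in all 4 lists with 15.9-fold and 6.24-fold, and 14.1-fold and 5.79-fold. All 5 pairs with an aminoacyl-tRNA synthetase were bound by both and 4 were in all 4 lists, such as S100pbp/Yars and Orc3/Rars2.

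The symbols of the cell cycle list matched 16 pairs, of which 14 were bound by both, 11 were in all 4 lists and 1 had no peak. Cdk5/Slc4a2, Alyref/Anapc11 and Ssna1/Anapc2 were among the strongest, where the neuronal kinase Cdk5 matched by its symbol. Anapc2 and Anapc11 form the catalytic core of the anaphase-promoting complex. The pair without a peak was Ccnt1/4930415O20Rik, where Ccnt1 also matched by its symbol and encodes cyclin T1 of the elongation factor P-TEFb. Proteasome and chaperone genes were found in 18 pairs, of which 17 were bound by both, 13 were in all 4 lists and 1 had no peak. Dnajc2/Psmc2, with a ribosome-associated co-chaperone and a proteasomal ATPase, had 18.2-fold and 9.22-fold enrichment in CDK6-WT and 20.0-fold and 9.33-fold in CDK6-K43M. The pair without a peak was Hspa1a/Hspa1l, with a heat-inducible Hsp70 and its testis-type relative. Cytosolic ribosomal proteins were found in 9 pairs, of which 7 were bound by both and 5 in all 4 lists, and Rnf151/Rps2 had no peak. Rpl9/Lias showed the widest spread of these, with 27.7-fold and 3.39-fold enrichment in CDK6-WT and 19.2-fold and 5.32-fold in CDK6-K43M.

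The patterns for tissue-restricted families matched 1643 genes, and 4 of their starts (0.243%) were bound by both variants. Only 3 bidirectional pairs matched, of which 2 were bound by both. The part of these rarely bound starts in the excess over other starts was not tested. Col4a4/Col4a3, which encodes chains of basement membrane collagen, had no peak in any list. Nt5c3/Vmn1r4, with a nucleotidase and a vomeronasal receptor, was in all 4 lists with 9.98-fold and 3.58-fold enrichment in CDK6-WT and 15.2-fold and 6.62-fold in CDK6-K43M. Polk/Col4a3bp matched by its symbol only, since Col4a3bp encodes a ceramide transporter. No B-lineage gene and no gene of the other lineages searched was part of a bidirectional pair.

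Histone genes behaved differently from the other groups. Of 14 pairs with a replication-dependent histone, mostly an H2A gene facing an H2B gene on chromosome 13, 8 were bound by both, the same 8 were in all 4 lists and 3 had no peak. The remaining 3, Hist1h2bl/Hist1h2ai, Hist1h2ak/Hist1h2bn and Hist1h2an/Hist1h2bp, were the 3 windows of all 754 with peaks in both replicate 2 lists and neither replicate 1 list. Hist1h2ak/Hist1h2bn had 23.3-fold enrichment in CDK6-WT replicate 2 and 18.4-fold in CDK6-K43M replicate 2. Hist1h2ac/Hist1h2bc had 7.78-fold and 22.0-fold in CDK6-WT and 8.18-fold and 23.8-fold in CDK6-K43M. Hist1h2ae/Hist1h2bg had 7.45-fold and 27.7-fold in CDK6-WT and 8.05-fold and 19.6-fold in CDK6-K43M. Replicate 2 was the higher library in both variants at these named pairs, which was the opposite of the non-histone pairs described so far. This did not hold at every histone pair. Bola1/Hist2h2ab on chromosome 3 had 7.80-fold and 5.24-fold in CDK6-WT and 8.57-fold and 6.94-fold in CDK6-K43M. Hist2h2ac/Hist2h2be, also on chromosome 3, had 9.15-fold and 5.54-fold, and 8.45-fold and 10.06-fold. Several of the peaks at histone pairs only reached into the window from a summit near or beyond its edge. In the replicate 2 lists, 5 of the 11 strongest peaks at histone pairs had their summit outside the window with CDK6-WT and 5 of 11 with CDK6-K43M, among them both at Hist1h2ae/Hist1h2bg (609 bp and 734 bp from the midpoint) and both at Hist1h2ak/Hist1h2bn (701 bp and 729 bp). With only peaks whose summit was inside the window, Hist1h2ac/Hist1h2bc had 9.73-fold in CDK6-K43M replicate 2 and Hist1h2ak/Hist1h2bn had no peak there.

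Among the 8 histone pairs in all 4 lists, the median percentile was 57.8 and 97.9 in CDK6-WT replicates 1 and 2, and 64.9 and 99.0 in CDK6-K43M. At the 474 other pairs in all 4 lists it was 88.4 and 59.9 in CDK6-WT, and 89.3 and 58.4 in CDK6-K43M. Averaged over the variants, replicate 1 ranked higher at 456 of these 474 pairs, by a median of 26.8 percentile points, and at 1 of the 8 histone pairs, whose median difference was -32.2. With summits inside the window, an alternative chosen after the data were seen, 6 histone pairs were in all 4 lists, 0 of them ranked higher in replicate 1 and the median difference was -37.1, against 433 of 449 other pairs and a median of 27.03. The contrast between replicate numbers was noticed in the data and was not tested. The peaks at histone pairs in replicate 2 were also wide, as at Hist1h2ac/Hist1h2bc with 327 bp and 1743 bp in CDK6-WT and 495 bp and 1388 bp in CDK6-K43M. The pairs without a peak were Hist1h2bq/Hist1h2ao, Hist1h2ap/Hist1h2br and Hist1h2ba/Hist1h2aa. Clustered histone genes have nearly identical copies and the authors removed multimapping reads, so that values at these pairs are uncertain.

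**Figure D3:**
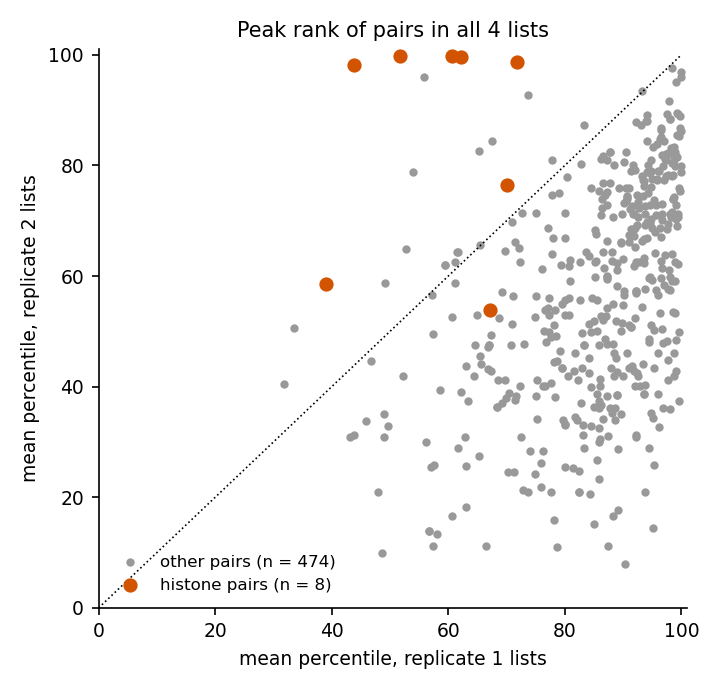
Each point is a bidirectional pair with a peak in all 4 lists. Its mean percentile by −log10 q over the replicate 1 lists of both variants is on the x axis and over the replicate 2 lists on the y axis, and the dotted line marks equal ranks. Most of the 474 other pairs (grey) lie below the line and 7 of the 8 histone pairs (orange) above it.

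Spacing made little difference up to 500 bp. Of the 312 pairs with starts up to 100 bp apart, 260 (83.3%) were bound by both variants, and of the 206 pairs over 100 and up to 200 bp apart 168 (81.6%). Over 200 and up to 300 bp it was 76 of 100 (76.0%) and over 300 and up to 500 bp 55 of 66 (83.3%), all with overlapping intervals. Over 500 bp it was 46 of 70 (65.7%, 54.04% to 75.8%), and the median CpG ratio there was 0.626, against 0.778 to 0.806 in the closer pairs. Just outside the distance rule, 32 of 46 pairs over 1000 and up to 1500 bp apart (69.6%) were bound by both. The closest pair bound by both was Slc7a6os/Prmt7 with starts 1 bp apart, and its window had 17.1-fold and 7.84-fold enrichment in CDK6-WT and 17.6-fold and 8.57-fold in CDK6-K43M. The widest was Btf3l4/Txndc12 at 987 bp, with 12.2-fold and 5.11-fold in CDK6-WT, 13.1-fold in CDK6-K43M replicate 1 and no peak in replicate 2. Pairs whose genes overlap at their heads by at most 1000 bp were not members, but 348 of 457 such pairs (76.1%) were bound by both.

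**Figure D4:**
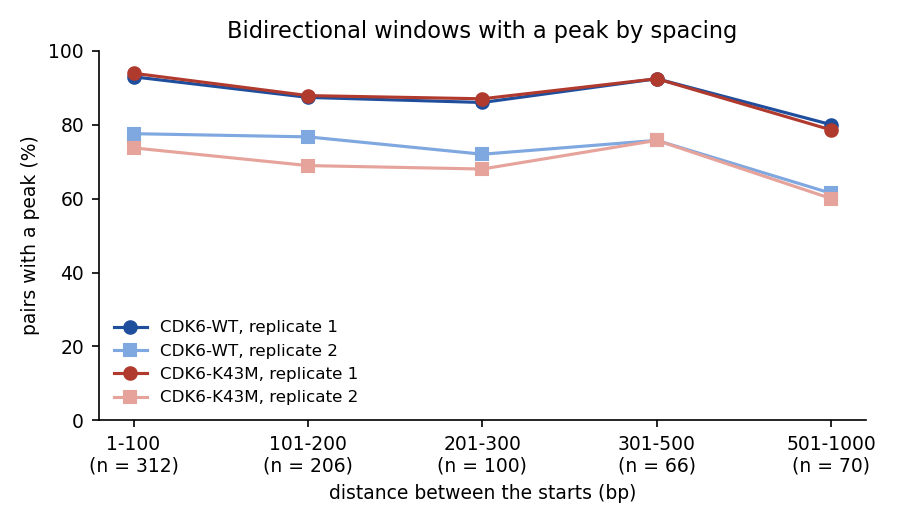
The y axis gives the percentage of bidirectional pairs with a peak and the x axis the distance between the starts in bp, with the number of pairs below. Lines are the 4 libraries. The shares of each library vary little up to 500 bp and are lowest over 500 bp, from 60.0% in CDK6-K43M replicate 2 to 80.0% in CDK6-WT replicate 1.

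Within the windows, the strongest summit often lay between the starts. This was so for 49.2% and 37.0% of the bound windows in CDK6-WT and for 49.2% and 36.7% in CDK6-K43M, whereas the span between the starts took up 13.9% of the window length. The contrast was smaller in wide pairs. Over 500 bp apart, the shares were 58.9% and 46.5% in CDK6-WT and 58.2% and 47.6% in CDK6-K43M. The span there took up 40.2% to 41.1% of the window length. On the side of the minus-strand gene lay 26.6% ± 2.51 of the summits and on the side of the plus-strand gene 26.9% ± 3.66 (SD, n = 4). Over all spacings together the summits thus showed no preference for a strand, but single bins differed. Up to 100 bp apart, the minus side held 33.8% to 40.5% and the plus side 26.9% to 32.2%, with the minus side higher in every library. Over 100 and up to 200 bp, the plus side was higher in every library, with 23.8% to 29.7% against 16.6% to 26.1%. These differences were not tested. Over all spacings, the signed median distance of the summits from the midpoint was 0.625 bp ± 3.09 (SD, n = 4). The absolute distance had a median of 62 bp and 97 bp in CDK6-WT and 61.5 bp and 96.8 bp in CDK6-K43M. Seen from each member start, 66.5% to 73.6% of the summits were upstream, by a median of 44 bp to 51.5 bp. At single starts 49.1% to 58.7% were upstream, with median positions from 20 bp upstream to 3 bp downstream. These values are not a like comparison. In a pair, a summit between the starts is upstream of both genes, and a summit beyond a start is still upstream of the farther gene. The share upstream of member starts therefore largely restates the share between the starts.

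The wide pairs showed how the summit was placed. Among pairs over 500 bp apart, where the midpoint is at least 250 bp from each start, 0.00% to 4.76% of the summits lay within 100 bp of the midpoint. The median distance from the nearest start was 66 bp to 113 bp. Both starts had a peak within 500 bp in 43 and 27 of these 70 pairs in CDK6-WT and in 44 and 25 in CDK6-K43M. The strongest peak was the same for both starts in 33 and 17 pairs, and in 33 and 17 pairs, respectively. In the remaining pairs with both starts bound, the strongest peak within 500 bp differed between the starts. The flanks of the starts can overlap at these distances, so a peak may lie near both.

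**Figure D5:**
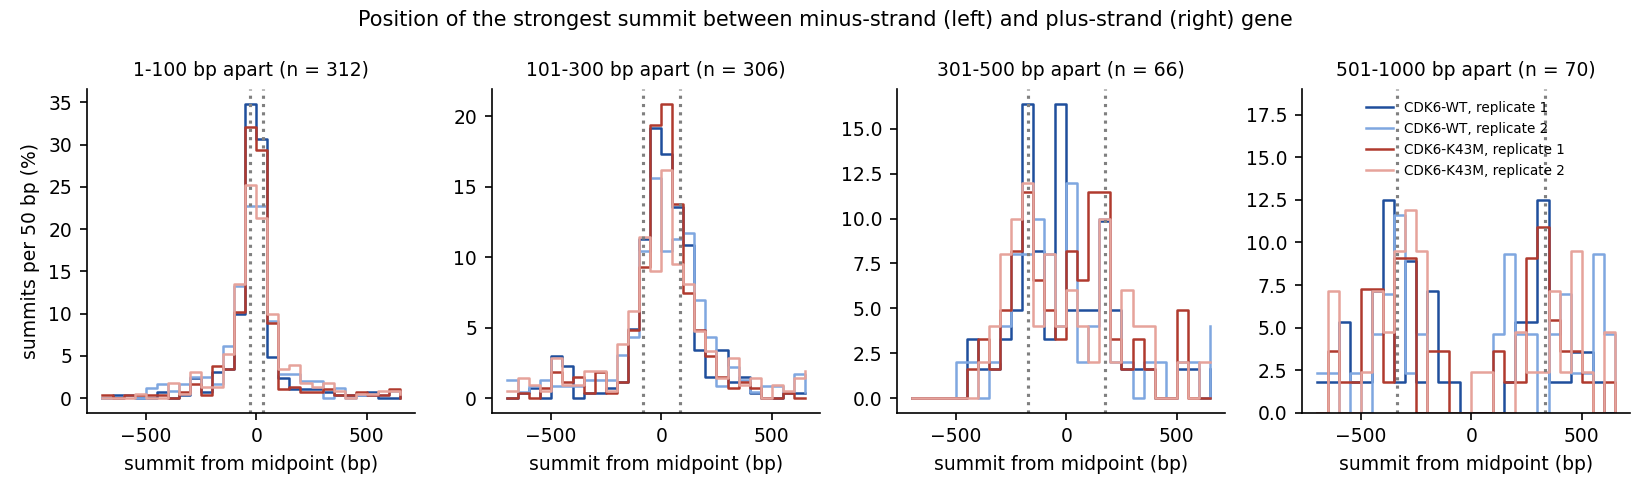
The x axis gives the distance in bp of the strongest peak summit from the midpoint between the starts and the y axis the percentage of summits per 50 bp, in 4 panels by the distance between the starts, each with its own y scale. Lines are the 4 libraries and dotted lines mark the starts at the median spacing of the panel. Summits gather at the midpoint in close pairs, and in pairs over 500 bp apart they lie near the starts on either side of them, with few within 100 bp of the midpoint.

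Sequence letters of known factors were counted from 300 bp before to 100 bp after each start, on both strands. The ETS letters CCGGAAG were present at 30.9% of member starts, at 9.58% of single starts and at 12.5% of all protein-coding starts. The YY1 letters AAGATGGCG were found at 6.93%, 1.71% and 2.30%, and the NRF-1 core CGCATGCG at 5.99%, 2.11% and 2.51%, respectively. With the open spelling GCGCNTGCG, chosen after the data were seen, NRF-1 was matched at 24.0%, 7.14% and 9.15%. The NFY letters AGCCAAT occurred at 15.9%, 9.47% and 10.0%, the SP1 letters GGGGCGGGG at 24.4%, 14.7% and 15.9% and the E2F letters GGCGGGAA at 7.33%, 2.96% and 3.59%. The letters TATAAA of the TATA box were rarer at member starts, with 4.84%, 18.01% and 15.8%, and so were the RUNX letters TGTGGTT with 3.36%, 7.02% and 6.49%. Of the others searched, the CRE letters TGACGTCA were at 4.77%, 2.20% and 2.60%, and the E-box TCACGTGA at 2.96%, 0.970% and 1.24%. GFY/Ronin as ACTACAATT was at 1.01%, 0.492% and 0.552%. Its open spelling ACTACANNT, also chosen after the data were seen, was at 9.35%, 5.88% and 6.10%. The starts of a pair share sequence and are not independent, and a match does not show that a factor binds.

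These differences were smaller between bound starts. Among starts bound by both variants, ETS letters occurred at 34.9% of member starts and 22.5% of single starts, and YY1 letters at 7.61% and 4.27%. SP1 letters occurred at 23.5% and 24.9%. Within 100 bp of the strongest summit, ETS letters were found in 25.4% ± 2.35 of bidirectional windows and 17.2% ± 2.09 of single starts (SD, n = 4), higher at the bidirectional windows in 4 of 4 libraries. NFY letters were at 9.64% ± 1.12 and 6.19% ± 1.17, also higher in 4 of 4 libraries. SP1 and RUNX letters were higher in 0 of 4 libraries, with 12.3% ± 3.09 and 13.6% ± 2.72 for SP1, and 1.59% ± 0.584 and 2.99% ± 0.460 for RUNX. The TATAAA letters remained rarer at bound member starts than at bound single starts, with 4.36% and 9.17%. Near the summits they were not rarer, with 2.53% ± 0.0944 and 2.18% ± 0.183, higher at the bidirectional windows in 4 of 4 libraries.

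Among the members themselves, the 482 pairs in all 4 lists and the 68 without a peak differed most in the ETS letters. Within 200 bp of the midpoint, 166 pairs in all 4 lists (34.4%, 30.3% to 38.8%) and 2 pairs without a peak (2.94%, 0.810% to 10.1%) had them. YY1 letters were present at 34 of 482 pairs (7.05%) and the NRF-1 core at 33 (6.85%), and both at 0 of 68, which allows a share of up to 4.41%. The open NRF-1 spelling was present at 25.9% of pairs in all 4 lists and at 6 of 68 (8.82%). NFY and E2F letters did not follow this order, with 14.3% and 16.2% for NFY and 6.64% and 10.3% for E2F. The pairs without a peak had a lower CpG ratio, with a median of 0.514 against 0.809, and the letters of ETS, YY1, NRF-1 and E2F each contain a CpG, whose part was not tested. They also held more predicted gene models, with 18 of 68 (26.5%) against 37 of 482 (7.68%), and 7 of the 20 pairs on the X chromosome.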

How the data were processed

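ChIP-seq peak lists of 4 anti-HA libraries were analysed, without the 2 input libraries. The authors had the reads trimmed (Trimmomatic 0.36), aligned to mm10 with BWA 0.7.15 and cleared of blacklisted regions, multimapping and low-quality reads, and called peaks with MACS2 2.1.0, here in a list per library. The deposited lists give the fold enrichment (a ratio over local background), the −log10 p-value and −log10 q-value, a score derived from the latter and, as other information, the summit offset. Read totals are not part of the deposited lists, and sequencing depth is therefore unknown. No −log10 q was below that of a q-value of 0.05.

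Gene starts came from GENCODE M21, whereas the authors used M13. A CpG ratio was taken from GRCm38. Overlaps were computed with Python 3.11.15, pysam 0.24.0, scipy 1.17.1, pandas 2.3.3 and numpy 2.4.6 and tested on simulated data. Libraries were compared with exact permutation tests. The members, gene lists and tests were chosen with earlier results of these data known. Pairs named are the 8 strongest and 3 weakest in all 4 lists, those unique to a variant, known examples, up to 4 bound and 3 unbound per gene list, and the closest and widest, and 1 pair that this rule names is not reported here. Alternatives were other peak thresholds, windows, flanks, definitions and comparison starts, a replicate block and leaving out each library.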

Additional observations from a re-analysis of the deposited data

How the results depend on the processing

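Of 130 alternatives to 8 results, 104 were labelled the same, 21 moved a count and 5 reversed a direction. For tested differences the label meant the same direction only, since no test of 4 libraries could pass 0.05. For counts it meant a change within a set factor. For the share of summits between the starts it meant a change smaller than the SD between libraries. The excess of bidirectional windows over single starts stayed positive throughout, from 21.4 to 52.9 percentage points. The number of windows bound by both variants was 238 when peaks needed a −log10 q of 10, 195 when each list was cut to its 10000 strongest peaks, 1170 with each member start counted alone and 953 with overlapping heads included, where the last 2 count more items, and 530 to 670 without 1 library. Windows unique to CDK6-WT numbered 0 when peaks needed a −log10 q of 5 and among the 10000 strongest, 2 at 10 and with each start alone, 3 with overlapping heads, and 1 to 79 without 1 library. Windows unique to CDK6-K43M numbered 1 when that limit was 5, with a flank of 250 bp, with the span between the starts alone and with overlapping heads, 2 at a limit of 10 and among the 10000 strongest, and 0 to 45 without 1 library. The difference in median percentile was -0.166 among the 10000 strongest peaks; the cause was not tested.

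Without 1 library, the difference between variants in the share of bound windows ranged from -11.5 to 7.69 percentage points and that in the excess from -8.18 to 3.799. With the replicate number as a block these were -1.92 (exact permutation p = 1) and -2.19 (exact permutation p = 0.5), where 2 pairs cannot go below 0.5. The labels do not say what a replicate number marks, so the pairing was not taken as given. Depth is unknown, and a window without a peak may hold signal below the calling threshold.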
